A study of Mus musculus with 14 samples.

Results

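Nos2 and Slc7a2 encode the inducible nitric oxide synthase and a cationic amino acid transporter that brings arginine, the substrate of that enzyme, into the cell. They were taken as every probe whose gene symbol in the annotation of the platform is Nos2 or Slc7a2, which gave 1 probe for each, so that 2 of the 8841 genes named on the array are described. RNA came from thioglycollate-elicited macrophages, cells drawn into the peritoneum of female C57BL/6 mice aged 6 weeks by an irritant broth, and it was measured on 14 one-colour arrays, 2 in each of 7 groups. The cells of the first group were untreated, those of the next group received LPS (bacterial lipopolysaccharide, which TLR4 senses) and those of another received poly(I:C) (artificial double-stranded RNA, which TLR3 senses). The remaining 4 groups received GW3965 with LPS, GW7845 with LPS, GW3965 with poly(I:C) or GW7845 with poly(I:C). GW3965 activates the liver X receptors (LXRs) and GW7845 activates PPARγ. The sources used here state neither doses nor treatment times, and no group received an agonist alone. The arrays of a group are biological replicates per the series text, which leaves unsaid whether each came from 1 animal or from pooled ones. With 2 arrays in a group, their number limits the precision of every value below.

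Nitric oxide is made from arginine by the nitric oxide synthases, of which Nos2 is the form that macrophages switch on when Toll-like receptors sense microbial products. The signal reaches the Nos2 gene through NF-κB and through interferons and interferon regulatory factors. The enzyme depends on the cofactor tetrahydrobiopterin, on uptake of arginine by transporters such as Slc7a2, and on resynthesis of arginine from citrulline by Ass1, while the arginases draw on the same arginine. LXRs and PPARγ are lipid-binding nuclear receptors known to restrain inflammatory genes in macrophages, and how they differ in repressing Toll-like receptor responses is the question that the series title poses.

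The values are linear intensities scaled so that each array had a median of 1. Differences are given on the log2 scale, where 1 is a doubling, with the standard error (SE) of a limma fit of the 7 group means to all arrays, and a probe was called at a p under 0.05 after Benjamini-Hochberg adjustment over 9584 probes. The arrays fell into 2 sets of 7, named set A and set B here, with 1 array of each group in each. No label names these sets. They were split at the largest gap in the 10th percentile of intensity on the log scale. This percentile was 0.137 to 0.271 in set A and 0.0549 to 0.0833 in set B. Set A held the first array of each group except GW7845 with LPS, whose first array was in set B. Whether cells of one preparation lie behind each set is not known. Values are therefore also given within each set, and a further fit, the array-set fit, took the set as a block. Of 7 macrophage markers measured, 6 were above the array median in every group, with Lyz2 (lysozyme) at 998 to 1939, while Fcgr1 (an Fc receptor) was below it on every array, at 0.0588 to 0.347. In cell populations such as these, a smaller share of expressing cells and less RNA per cell cannot be told apart.

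Both genes had their lowest levels in untreated cells and rose with either stimulus. Nos2 was at 0.977 in set A and 1.20 in set B without treatment. With LPS it was at 16.2 and 7.66 in the same order of sets, and with poly(I:C) at 13.8 and 10.3. The lowest of the 4 arrays with a stimulus alone was thus well above both untreated arrays. Relative to untreated cells, Nos2 rose by 3.36 on the log2 scale with LPS (SE 0.41, limma adjusted p = 9.8e-05), a 10.3-fold increase with a 95% interval of 5.60 to 18.9. It rose by 3.46 with poly(I:C) (SE 0.41, limma adjusted p = 6.8e-05), an 11.0-fold increase with an interval of 5.99 to 20.3.

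Slc7a2 was at 2.27 in set A and 2.34 in set B without treatment, a closely spaced pair. Its intensity was 47.1 and 33.9 with LPS, and 71.5 and 58.2 with poly(I:C). Every stimulated array was far above the untreated ones. Slc7a2 rose by 4.12 on the log2 scale with LPS (SE 0.36, limma adjusted p = 4.1e-06), a 17.3-fold increase with a 95% interval of 10.1 to 29.7. With poly(I:C) it rose by 4.81 (SE 0.36, limma adjusted p = 8.5e-07), a 28.0-fold increase with an interval of 16.4 to 47.9. As a background, 5.21% of all tested probes were called higher with LPS and 6.08% with poly(I:C), so that both members belonged to a small share of the probes. All 12 stimulated arrays lay above both untreated arrays for both genes, which held for 9.21% of the probes measured on every array.

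The difference between the 2 stimuli did not pass the threshold for either gene. For Nos2, poly(I:C) minus LPS was 0.10 on the log2 scale, with a 95% interval of -0.78 to 0.98 (limma adjusted p = 1). The sign of this difference was not stable, since it was -0.44 without the second LPS array, whose Nos2 value of 7.66 was the lowest with a stimulus alone. For Slc7a2 both poly(I:C) arrays were above both LPS arrays, as for 8.78% of probes, and the difference was 0.69, with an interval of -0.08 to 1.47 (limma adjusted p = 1).

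**Figure D1:**
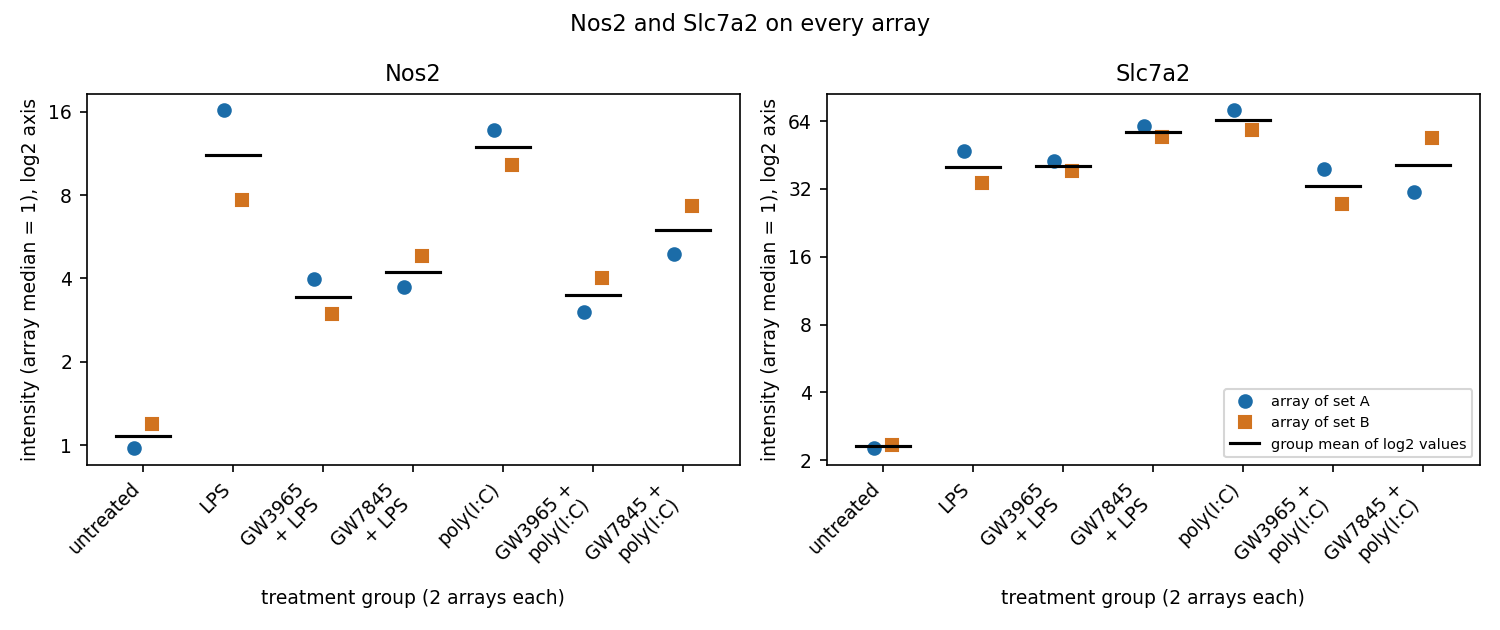
Intensity of Nos2 and Slc7a2 on each of the 14 arrays by treatment group, on a log2 axis in units of the array median; circles are arrays of set A, squares arrays of set B, and bars the group mean of the log2 values. Nos2 was lower on all 8 agonist arrays than on all 4 arrays with a stimulus alone, whereas the Slc7a2 values of agonist and stimulus-alone arrays overlapped.

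Nos2 was lower with either agonist under either stimulus, and on every agonist array. With GW3965 and LPS its intensity was 3.98 in set A and 2.97 in set B, and with GW3965 and poly(I:C) it was 3.02 and 4.02. With GW7845 and LPS it was 3.72 and 4.81, and with GW7845 and poly(I:C) 4.89 and 7.27. The highest of these 8 values, 7.27, was below the lowest with a stimulus alone, 7.66, although the gap was narrow. Of the probes measured on every array, 0.443% had all 8 agonist arrays below all 4 stimulus-alone arrays, in which Nos2 was 1 of 42.

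For GW3965, Nos2 fell by 1.73 on the log2 scale averaged over both stimuli (SE 0.29, 95% interval -2.35 to -1.11, limma adjusted p = 0.025), to a level 3.32 times lower. It was 1 of 8 probes called lower, or 0.0835% of those tested. The difference was -2.11 in set A and -1.36 in set B, so each set held the direction. The adjusted p was 0.0046 in the array-set fit, where 0.814% of probes were called lower, and it ranged from 0.0046 to 0.14 over the alternative settings. The call was lost in 6 of the 8 fits that left out 1 array of these groups (adjusted p from 0.018 to 0.17 over the 8) and kept only without the second LPS array (-2.002) or the second poly(I:C) array (-1.84). In the array-set fit all 8 kept it, with adjusted p from 0.0046 to 0.045.

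Taken stimulus by stimulus, the same Nos2 difference did not pass the threshold. With LPS, the difference with GW3965 was -1.69 on the log2 scale (95% interval -2.57 to -0.81, limma adjusted p = 0.37, array-set fit 0.077), a level 3.23 times lower. The adjusted p for this difference ran from 0.012, in a fit of the groups compared alone, to 0.90 over the alternatives. With poly(I:C) the difference was -1.77 (interval -2.65 to -0.89, limma adjusted p = 0.86, array-set fit 0.17), a level 3.41 times lower. Few probes passed here at all: 0.0104% were called lower with GW3965 under LPS and 0% under poly(I:C). Both GW3965 arrays were below both stimulus-alone arrays under either stimulus, which also held for 12.3% of probes under LPS and 12% under poly(I:C). The GW3965 effect on Nos2 under poly(I:C) minus that under LPS was -0.08, and its interval, -1.32 to 1.17, leaves room for a change of either sign.

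For GW7845, the Nos2 differences had the same sign but did not pass the threshold. The mean was -1.39 with LPS (95% interval -2.27 to -0.52, limma adjusted p = 1) and -0.996 with poly(I:C) (interval -1.88 to -0.12, limma adjusted p = 1), levels 2.63 and 1.99 times lower. Set A gave -2.12 and -1.49 and set B -0.67 and -0.50, so that the differences were larger in set A under both stimuli. Both GW7845 arrays were below both stimulus-alone arrays, as they were for 11.1% of probes under LPS and 6.78% under poly(I:C). Averaged over the stimuli, the difference was -1.20 (SE 0.29, interval -1.82 to -0.57, limma adjusted p = 1, array-set fit 0.19, range over the alternatives 0.19 to 1). With 1 array left out it ranged from -1.465 to -0.926 in the fit without a block, where none of the 8 such fits called it. The array-set fit called it in 1 of 8, without the second array of GW7845 with poly(I:C) (-1.37). That array held the highest Nos2 value with an agonist. No probe at all was called for GW7845 under LPS or poly(I:C) by limma in either fit. At an unadjusted p under 0.05, 138 probes passed under LPS and 83 under poly(I:C), and in the array-set fit 572 and 362. With no effect at all, a share of 0.05 of the 9584 tested probes would pass on average. Only the count under LPS in the array-set fit was above that share.

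The agonists differ in the receptor they act on, and their Nos2 levels were compared only as given, since doses are not known. Nos2 was higher with GW7845 than with GW3965 by 0.30 on the log2 scale under LPS (95% interval -0.58 to 1.18) and by 0.78 under poly(I:C) (interval -0.10 to 1.65), with limma adjusted p = 1 for both. Under LPS the sets differed in sign, with -0.097 in set A and 0.70 in set B, and under poly(I:C) they gave 0.70 and 0.86. Both intervals include a difference of either sign.

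Nos2 nevertheless remained above the untreated level in all 4 agonist groups. The difference from untreated cells was 1.67 with GW3965 and LPS (limma adjusted p = 0.025), 1.97 with GW7845 and LPS (adjusted p = 0.0081), 1.69 with GW3965 and poly(I:C) (adjusted p = 0.021) and 2.46 with GW7845 and poly(I:C) (adjusted p = 0.0013), each with an SE of 0.41. The shares of all probes called higher in these comparisons were 4.09%, 4.34%, 4.59% and 5.15% in the same order. The calls for GW3965 with either stimulus were lost when any 1 array of the groups compared was left out (adjusted p 0.058 to 0.23), whereas the call for GW7845 with poly(I:C) was kept in all such fits. For GW7845 with LPS the call was lost without the first array of that group (adjusted p = 0.091) and without the first untreated array (0.069).

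**Figure D2:**
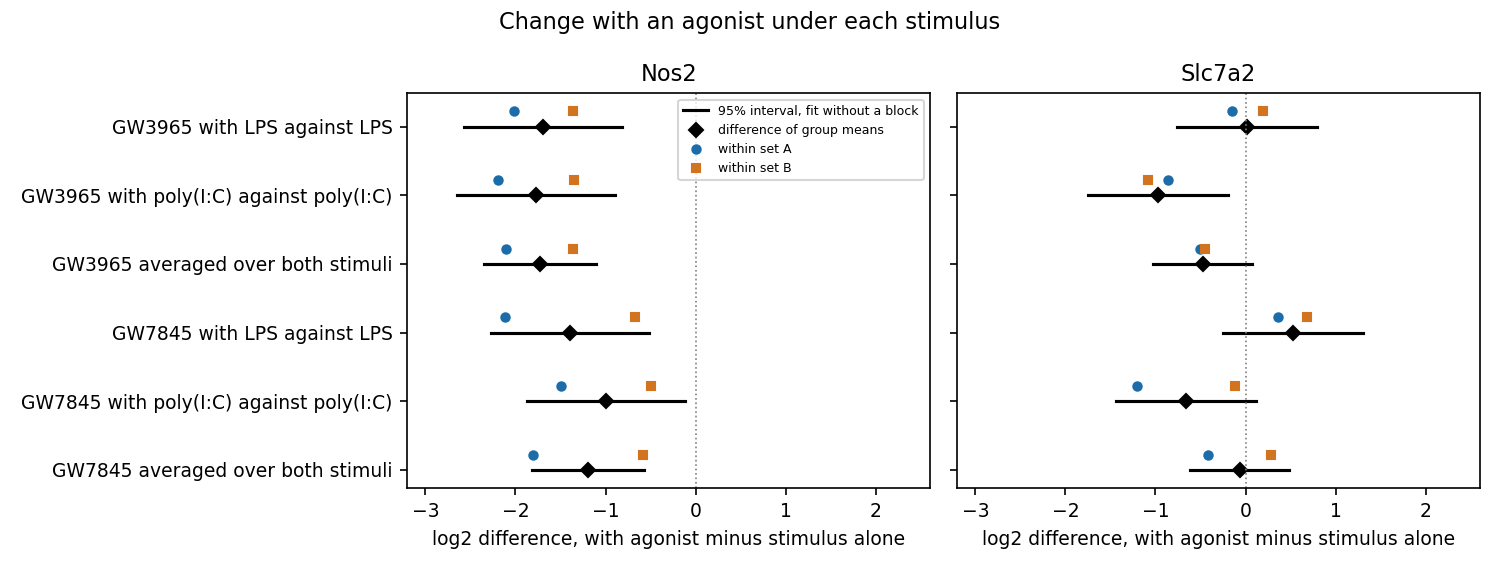
Log2 difference of Nos2 and Slc7a2 with an agonist relative to the stimulus alone. Diamonds are differences of group means with the 95% interval of the fit without a block, circles the difference within set A and squares within set B. All Nos2 points lie below 0, and the Slc7a2 points of GW7845 with LPS lie above 0.

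Under LPS, the mean of Slc7a2 was not lower with an agonist, unlike that of Nos2, although the intervals below include a fall. With GW3965 and LPS, Slc7a2 was at 42.4 in set A and 38.6 in set B, values that lay between those of the 2 arrays with LPS alone. With GW7845 and LPS it was at 60.7 and 54.6, both above the LPS arrays. The difference from LPS was 0.02 for GW3965 (SE 0.36, 95% interval -0.76 to 0.79) and 0.53 for GW7845 (interval -0.25 to 1.30), with limma adjusted p = 1 for both. The lack of overlap for GW7845 under LPS was shared with 9.01% of probes in that direction. Within the sets the GW3965 difference was -0.15 and 0.19, and the GW7845 difference was 0.37 and 0.69.

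Under poly(I:C) the Slc7a2 values were lower with an agonist, as the Nos2 values were. GW3965 with poly(I:C) gave 39.2 in set A and 27.5 in set B, and GW7845 with poly(I:C) gave 31.0 and 53.8, with the array of set B close to the lower of the poly(I:C) arrays, 58.2. The differences from poly(I:C) were -0.97 for GW3965 (95% interval -1.75 to -0.20, limma adjusted p = 1, array-set fit 0.54) and -0.66 for GW7845 (interval -1.43 to 0.11, limma adjusted p = 1). All agonist arrays were below both poly(I:C) arrays, as they were for 12% of probes with GW3965 and 6.78% with GW7845. Slc7a2 stayed far above the untreated level in every agonist group, by 3.83 to 4.64 on the log2 scale, with limma adjusted p between 1.7e-06 and 9.7e-06.

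The mean effect of GW7845 on Slc7a2 differed in sign between the stimuli. Slc7a2 was above the stimulus alone in both sets with LPS. With poly(I:C) it was below in both sets, though at only -0.11 in set B. The difference between these effects, poly(I:C) minus LPS, was -1.19 (SE 0.51, 95% interval -2.28 to -0.09), with -1.57 in set A and -0.80 in set B. It did not pass adjustment (limma adjusted p = 1), and the share of all probes with these signs in both sets was not counted. No probe was called for this interaction by limma in either fit, while 46 had an unadjusted p under 0.05 (281 in the array-set fit). Both counts were under the share of 0.05 of the tested probes that would pass on average with no effect. For GW3965 the corresponding Slc7a2 value was -0.99 (interval -2.09 to 0.10, limma adjusted p = 1). Between the agonists, Slc7a2 was 0.51 higher with GW7845 than with GW3965 under LPS and 0.31 higher under poly(I:C), neither of which passed the threshold.

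Expressed as the rise over the untreated array of the same set, in percent of the rise under the stimulus alone, Nos2 kept 19.8% in set A and 27.5% in set B with GW3965 under LPS. Under poly(I:C) with GW3965 it kept 16.0% and 31.1%. With GW7845 it kept 18.1% and 56.0% under LPS, and 30.6% and 67.0% under poly(I:C). Both agonists are set against the same stimulus-alone array in each set, so these shares are not independent; each Nos2 share was larger in set B. Slc7a2 kept 89.5% and 115% with GW3965 under LPS, and 130% and 166% with GW7845 under LPS. Under poly(I:C) it kept 53.4% and 45.1% with GW3965 and 41.5% and 92.0% with GW7845.

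**Figure D3:**
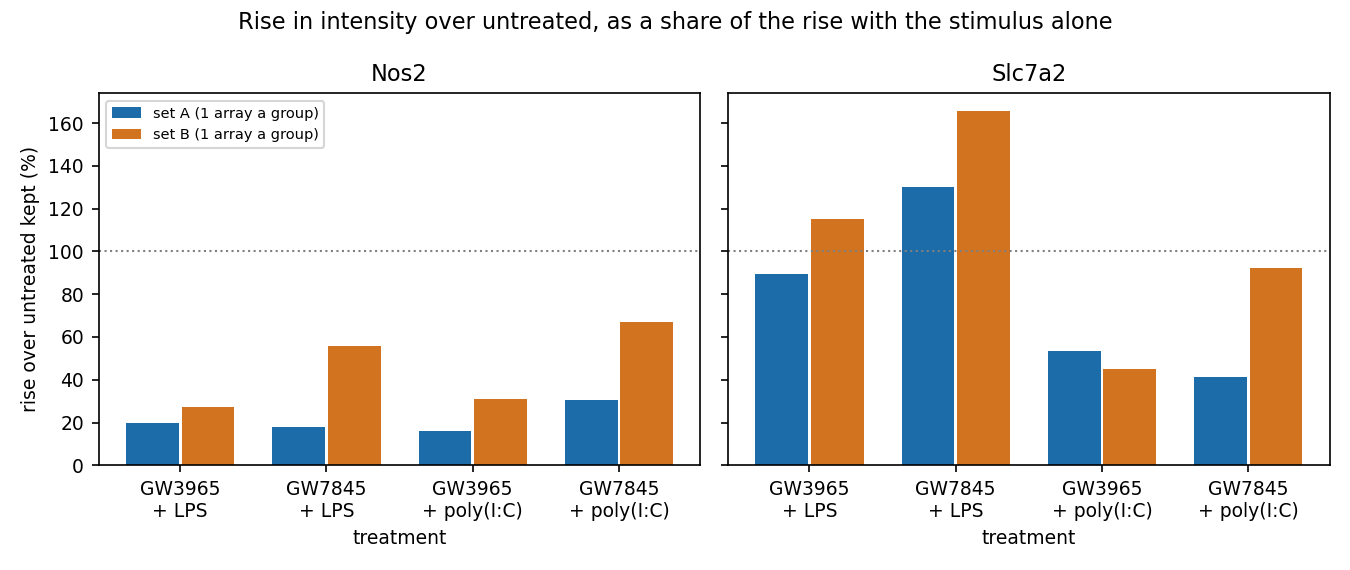
Rise in linear intensity over the untreated array of the same set, as a percentage of the rise with the stimulus alone, for each agonist and stimulus; each bar is 1 array (blue set A, orange set B) and the dotted line marks a rise as large as with the stimulus alone. Nos2 kept between 16.0% and 67.0%, and Slc7a2 between 41.5% and 166%.

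The log2 ratio of Nos2 to Slc7a2 on the same array gave the contrast between the genes directly. Relative to the stimulus-alone array of the same stimulus and set, it changed by -1.87 and -1.55 (set A, set B) with GW3965 and LPS and by -2.48 and -1.36 with GW7845 and LPS. Under poly(I:C) the changes were smaller, at -1.32 and -0.27 with GW3965 and -0.29 and -0.38 with GW7845. Averaged over both agonists, the change was -1.19 and was below 0 in 4 of 4 strata of stimulus and set (-2.18 to -0.33). The ratio was formed after the values of both genes had been seen, so it is given as a description, without a p-value.

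Ordered by mean log2 intensity, Nos2 ran from poly(I:C) (3.57 ± 0.30, SD) and LPS (3.48 ± 0.76) through GW7845 with poly(I:C) (2.58 ± 0.40), GW7845 with LPS (2.08 ± 0.26), GW3965 with poly(I:C) (1.80 ± 0.29) and GW3965 with LPS (1.78 ± 0.30) to untreated cells (0.11 ± 0.21), with n = 2 in each group. For Slc7a2 the order was poly(I:C) (6.01 ± 0.21, SD), GW7845 with LPS (5.85 ± 0.11), GW7845 with poly(I:C) (5.35 ± 0.56), GW3965 with LPS (5.34 ± 0.09), LPS (5.32 ± 0.34), GW3965 with poly(I:C) (5.04 ± 0.36) and untreated cells (1.21 ± 0.03). In both orders only the step from the lowest stimulated group to untreated cells passed the threshold (limma adjusted p = 0.025 for Nos2 and 9.7e-06 for Slc7a2). No pair of neighbouring stimulated groups passed it. For Nos2, the arrays with LPS were above those with GW7845 and poly(I:C), as for 7.18% of probes, and the latter were above those with GW7845 and LPS, as for 13.4%. For Slc7a2, the arrays with GW7845 and LPS were above those with GW7845 and poly(I:C), as for 7.57%.

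Among the other genes of arginine uptake and metabolism, 4 of 25 tested rose with LPS and 4 with poly(I:C), and none fell, with a median of 0.14 and 0.06 on the log2 scale against 0.06 and 0.10 over all probes. In either direction 7.8% of all probes were called with LPS and 8.86% with poly(I:C), and 17.8% and 18.7% in the array-set fit. In that fit 5 of the 25 rose and 1, Gamt (creatine synthesis), fell with each stimulus. Ass1, which rebuilds arginine from citrulline, rose by 2.72 with LPS (SE 0.39, limma adjusted p = 0.00038) and by 3.08 with poly(I:C). Arg2, the mitochondrial arginase, rose by 2.16 (SE 0.41, limma adjusted p = 0.0040) and 2.02. The cystine and glutamate exchanger Slc7a11 rose by 2.54 and 2.97, and the neutral amino acid transporter Slc7a8 by 1.82 (adjusted p = 0.048) and 2.15. Slc7a1, the constitutive cationic amino acid transporter, did not pass, with differences of 0.19 and 0.39 at intensities of 0.18 to 0.63. Arg1, the cytosolic arginase, was at -0.13 and -0.54, which did not pass either.

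Of 19 other genes of nitric oxide synthesis (synthases, cofactor supply and regulators), 1 rose with each stimulus and none fell. This was near the share of all tested probes called higher, 5.21% with LPS and 6.08% with poly(I:C). The gene that rose was Gch1, the first enzyme of tetrahydrobiopterin synthesis. Gch1 rose by 2.99 with LPS (SE 0.64, limma adjusted p = 0.0086) and by 3.14 with poly(I:C). The array-set fit called 3 higher and 1 lower with LPS and 2 higher and 1 lower with poly(I:C); the one that fell was Calm2, a calmodulin gene, at -1.13 and -1.36. The list's median was -0.29 and 0.03, against 0.06 and 0.10 over all probes. The neuronal and endothelial synthases Nos1 and Nos3 had low intensities throughout, at 0.21 to 0.52 and 0.12 to 1.08. Of 14 genes of the response to nitric oxide, Prkg1, the cyclic GMP-dependent kinase, rose with LPS (1.83, limma adjusted p = 0.040). Gucy1a1, among these 14, had values in set A alone. With poly(I:C), Prkg1, Gsr (glutathione reductase) and Gclm (glutathione synthesis) rose by 2.65, 1.93 and 1.39, and Aco1 (the iron-responsive aconitase) fell by 1.15. The array-set fit called 3 higher and 1 lower with LPS and 4 higher and 1 lower with poly(I:C), and the medians were 0.10 and 0.36. In either direction, that fit called 17.8% of all probes with LPS and 18.7% with poly(I:C).

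Of 42 receptors, signalling proteins and transcription factors upstream of Nos2, 19 rose and 3 fell with LPS, and 21 rose and 1 fell with poly(I:C), with medians of 1.55 and 1.57. Over all tested probes, 5.21% were called higher with LPS and 6.08% with poly(I:C), with medians of 0.06 and 0.10. Irf1, an interferon-induced activator of Nos2, rose by 3.29 with LPS (limma adjusted p = 0.00045) and 3.90 with poly(I:C). Tlr3 rose by 3.26 and 3.62, while Tlr4 did not pass, at -0.49 and -0.40. The largest changes of the list with LPS were those of Tnf (7.44), Pparg (-4.16), Ifng (4.04), Nfkb2 (3.92), Irf7 (3.78) and Nfkbia (3.47). Pparg, the gene of the receptor that GW7845 acts on, was thus called lower, and it fell by 3.96 with poly(I:C). Of 13 other macrophage activation markers, 7 rose with each stimulus and none fell, with medians of 3.03 and 3.08, among them Cd40 (6.78 with LPS) and Cd86 (3.93).

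**Figure D4:**
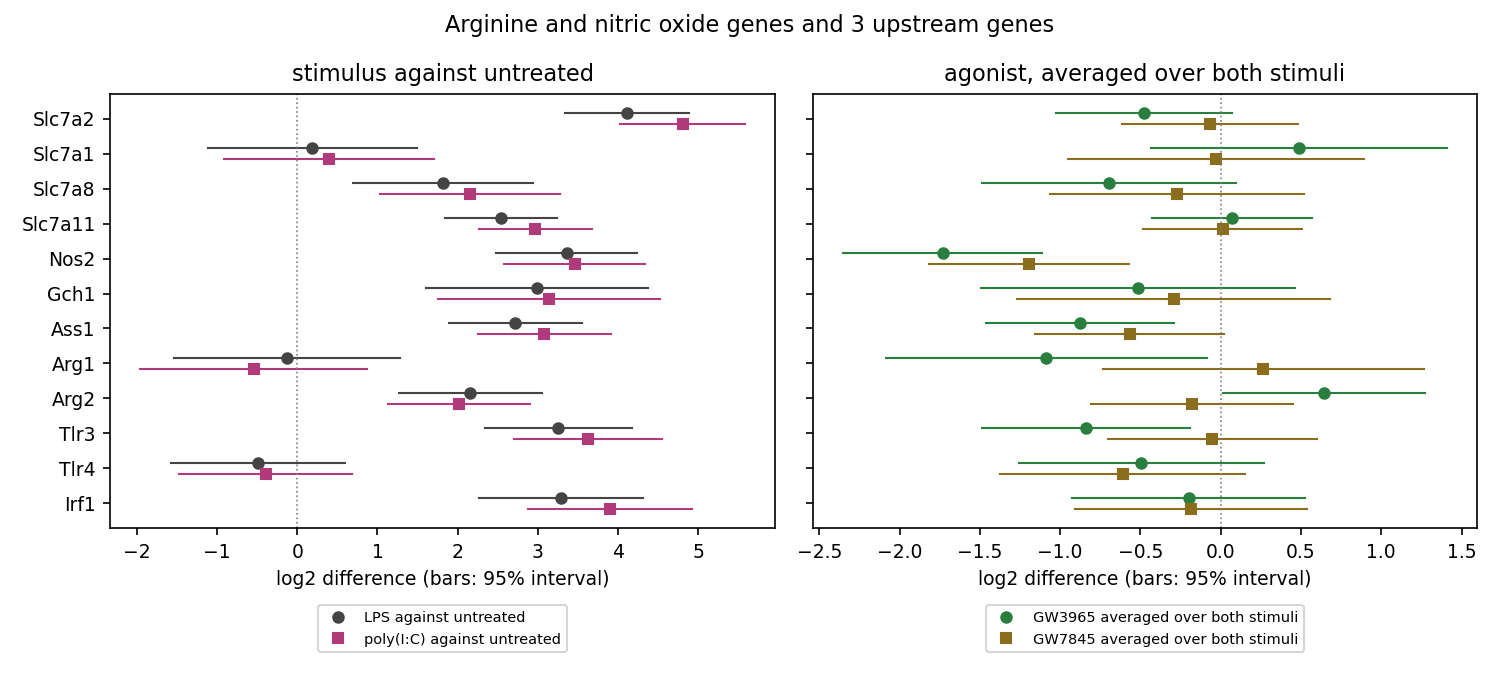
Log2 difference with its 95% interval for Nos2, Slc7a2, other genes of arginine and nitric oxide metabolism and 3 upstream genes; the left panel shows each stimulus against untreated cells and the right panel each agonist averaged over both stimuli. On the right, the interval of Nos2 lies below 0 for both agonists, and of the genes shown it passed adjustment for GW3965 alone.

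With an agonist, no other gene of these 5 lists was called in the fit without a block. Few probes were called there at all, 19 of 9584 for GW3965 averaged over both stimuli and 0 for GW7845. Averaged over both stimuli, Ass1 was at -0.88 with GW3965 (limma adjusted p = 0.58, array-set fit 0.087) and Arg2 at 0.64 (adjusted p = 1). With LPS, Ass1 was at 107 and 76.3 (set A, set B) and with GW3965 added at 39.8 and 46.4, while Arg2 was at 6.07 and 7.82 and then at 11.9 and 12.2. The arrays did not overlap for Ass1, as for 12.3% of probes that were lower, or for Arg2, as for 12.3% that were higher. Gch1 was at -0.51, Arg1 at -1.09, Slc7a1 at 0.49, Irf1 at -0.20, Tlr3 at -0.84 and Tlr4 at -0.49, none of which passed. The average for Tlr3 joined unlike stimuli. With LPS, Tlr3 was at 4.67 and 6.60 and with GW3965 added at 1.87 and 1.78, without overlap, as for 12.3% of probes. With poly(I:C) it was at 6.12 and 8.38 and then at 7.12 and 6.48, with overlap. With GW7845, Ass1 was at -0.57, Arg2 at -0.18, Arg1 at 0.27, Gch1 at -0.29 and Irf1 at -0.19. In the array-set fit of GW3965 averaged over both stimuli, 0.814% of all probes were called lower. Besides Nos2, those of the 5 lists were Hif1a (-0.94, limma adjusted p = 0.039), a hypoxia-inducible activator of Nos2, and the cytokine genes Il10 (-1.22, adjusted p = 0.016) and Il6 (-1.14, adjusted p = 0.033). They were 1 of 42 upstream genes and 2 of 13 activation markers. In the fit without a block the adjusted p of Hif1a, Il10 and Il6 was 0.92, 0.73 and 0.41.

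Summed markers of other cells also differed between groups with and without an agonist. The summed intensity of 7 neutrophil markers was 31.7 to 47.1 with LPS and 18.4 to 20.6 with GW3965 and LPS, and 24.1 to 51.2 with poly(I:C) and 16.6 to 16.9 with GW3965 and poly(I:C). It was 16.7 to 29.0 in untreated cells, 32.4 to 39.6 with GW7845 and LPS and 48.1 to 60.8 with GW7845 and poly(I:C), so that it was not lower with GW7845 under poly(I:C). Most of the sum was S100a8 (13.2 to 55.5), and Camp ran from 0.117 to 7.48. Among single probes, both GW3965 arrays were below both stimulus-alone arrays for 12.3% under LPS and 12% under poly(I:C). Mpo, Elane, Ltf, Ngp and Cxcr2 stayed below the array median on every array, and no marker had a group level at 0. The sum of 2 dendritic cell markers, nearly all of it Itgax (an integrin that macrophages also carry), was 19.98 to 35.7 with poly(I:C), 14.5 to 17.9 with GW3965 added and 10.7 to 17.7 with GW7845 added; with LPS it was 18.4 to 31.9, then 15.1 to 18.8 and 19.4 to 26.2. With GW7845 and LPS, the sums were below those with LPS for 6 B cell markers (13.6 to 15.5 against 15.8 to 24.7), 7 T and NK cell markers (16.2 to 20.4 against 21.2 to 25.7) and the 7 macrophage markers (1565 to 1684 against 1764 to 2731). Among single probes, both arrays with GW7845 and LPS were below both LPS arrays for 11.1%. Most of the T and NK sum was Gzma (12.3 to 27.1), while Cd3e, Cd3g, Cd3d, Cd8a and Thy1 stayed below the array median on every array. Most of the macrophage sum was Lyz2, followed by Cd14 (50.5 to 837), which was itself higher with LPS than in untreated cells. The part of these markers in the Nos2 differences was not tested.

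Over the 14 arrays, after the mean of the set was subtracted, the probes most like Nos2 among 8511 were Thbs4 (a thrombospondin, Pearson r = 0.93), Stk39 (a kinase, 0.93), Fam3b (0.93), Hps1 (0.92) and Tmem128 (0.92). Over the 12 stimulated arrays alone their r with Nos2 was 0.89, 0.84, 0.87, 0.81 and 0.86, on arrays that had also entered the choice of these probes. Thbs4, Fam3b and Stk39 were below the array median in untreated cells, at a mean log2 of -3.68, -3.15 and -1.99. The rise of Tmem128 was not called with LPS (1.03, limma adjusted p = 0.12) or with poly(I:C) (1.11, limma adjusted p = 0.086). Those most like Slc7a2 were Hspa1b (a heat shock protein), Il18, Socs3 (an inhibitor of cytokine signalling), Serpinb2 and Fpr2, each with r = 0.98. Within the stimulated arrays their r with Slc7a2 dropped to 0.69, 0.68, 0.61, 0.83 and 0.48. Nos2 and Slc7a2 correlated with each other at 0.80 over all arrays and at 0.45 over the stimulated ones, and Slc7a2 ranked 294th among the probes most like Nos2. These are descriptions over arrays that share the 7 treatments, with no test.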

How the data were processed

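The data were the deposited value table of 14 one-colour arrays, whose linear intensities the authors had scaled to an array median of 1 (from the values; at most 0.421% were at or below 0). How they were scanned, background-corrected and scaled is not given in the sources used here. Per the labels' protocols, 0.5 µg of total RNA was copied and transcribed with biotinylated UTP. Each array was placed by its title ("GW396 5+" was read as GW3965). Symbols came from the platform annotation: 8983 probes had 1 symbol, 1 had several and 1028 had none. Before taking log2, values under the 5th percentile of positive values (0.0686) were set to it; neither gene had a value missing or at the floor. Probes above the 20th percentile on at least 2 arrays were tested with limma 3.58.1 under R 4.3.3, as 7 group means with an intensity trend, two-sided, with 7 residual degrees of freedom (6 in the array-set fit). Group means also carry the set difference in their SE. The fit was tested on simulated data. No further scaling was applied; the alternatives covered the floor, an offset, quantile normalization, the filter, the trend, the groups in the fit, blocks and left-out arrays. Of 29 probes missing on all of set A none was missing in set B, and 30 were the reverse. Named genes were both members, list members called (up to the 6 largest of a list), a few fixed pathway genes, and the 5 probes most like each member; the levels of Nos1 and Nos3 and the array-set calls of list members were added after their values were seen. The members and gene lists were chosen with earlier results of these data known.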

Additional observations from a re-analysis of the deposited data

Results flagged for a closer look

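The effect of GW7845 on Slc7a2 under poly(I:C) minus that under LPS was -1.19 on the log2 scale. It drew attention because both sets of arrays moved up with the agonist under LPS (0.37 and 0.69) and both moved down under poly(I:C) (-1.21 and -0.11). The share of all probes with these signs was not counted. The interaction did not pass adjustment over all probes (limma adjusted p = 1, range over the array-set fits with 1 array left out 0.081 to 1).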

How the results depend on the processing

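The rise of both genes with LPS and with poly(I:C) was called under every alternative run (adjusted p at most 0.0070). Quantile normalization moved the median of all probes by -0.14 with LPS and by -0.17 with poly(I:C) relative to untreated cells; it turned the sign of poly(I:C) minus LPS for Nos2 (-0.025), of GW7845 averaged over the stimuli for Slc7a2 (0.072) and of the GW3965 interaction for Nos2 (0.0089), none of them called. Without the intensity trend, 3 Nos2 calls were lost: GW3965 with LPS (1.67, adjusted p = 0.066) and GW3965 with poly(I:C) (1.69, 0.058) against untreated cells, and GW3965 averaged over the stimuli (-1.73, 0.14). A fit of the groups compared alone called GW3965 with LPS against LPS for Nos2 (-1.69, 0.012). The cause of these changes was not tested. Replicate numbers were not used for pairing: same-numbered arrays deviated together (correlation over 0.1) in 15 of 21 pairs of groups, and all 6 pairs with GW7845 and LPS were below 0. The first array of GW7845 with LPS lies in set B, whereas the first arrays of the other groups lie in set A. With the replicate block, 1067 probes were called with LPS and 1189 with poly(I:C), against 748 and 849 without it, 1702 and 1790 with the array set as a block, and the calls of Nos2 and Slc7a2 were the same.

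With 1 array left out in the fit without a block, some values changed sign or side of the threshold. For Nos2, the range was -0.44 to 0.64 for poly(I:C) minus LPS, -0.62 to 0.46 for the GW3965 interaction and -0.14 to 0.94 for the GW7845 interaction. Against untreated cells Nos2 ranged from 1.46 to 1.88 (GW3965 with LPS), 1.78 to 2.15 (GW7845 with LPS) and 1.48 to 1.89 (GW3965 with poly(I:C)), and for GW3965 averaged over the stimuli from -2.002 to -1.46. For Slc7a2, the range was -0.22 to 0.26 for GW3965 with LPS against LPS, -0.084 to 0.71 for GW7845 against GW3965 under poly(I:C) and -0.27 to 0.13 for GW7845 averaged over the stimuli. The same with the array set as a block, chosen after seeing the data, gave for Nos2 -0.51 to 0.70, -0.68 to 0.53 and -0.21 to 1.00 for the first 3 of these, 1.45 to 1.89, 1.73 to 2.21 and 1.43 to 1.95 against untreated cells, -2.30 to -1.09 for GW3965 with LPS against LPS (called without the second LPS array, adjusted p = 0.050), -2.04 to -1.43 for GW3965 averaged over the stimuli, and -1.50 to -0.89 for GW7845 averaged over the stimuli (called without the second array of GW7845 with poly(I:C), -1.37). For Slc7a2 it gave -0.21 to 0.84 for GW7845 against GW3965 under poly(I:C) and -0.33 to 0.20 for GW7845 averaged over the stimuli (0.041 without the first LPS array), and -0.20 for GW3965 with LPS against LPS without the second LPS array. Within those Nos2 ranges, poly(I:C) minus LPS was -0.13 and the GW3965 interaction 0.146 without the first poly(I:C) array, the latter was 0.19 without the first array of GW3965 with poly(I:C), and GW3965 with poly(I:C) against untreated cells was 1.496 without the first untreated array. The lone array of a group was assumed to vary like the others. Detection calls were not used, so the level alone shows how far a signal lay above background.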
